A study of Homo sapiens with 8 samples.

Results

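The miR-26 family was followed through small RNA sequencing of the renal carcinoma line 786O. The family was taken as every mature miRNA of the deposited count table that carries the name miR-26, which gave 5 of the 3112 listed miRNAs: hsa-miR-26a-5p, hsa-miR-26b-5p, hsa-miR-26a-1-3p, hsa-miR-26a-2-3p and hsa-miR-26b-3p. The prefix hsa is left out where it adds nothing. It was taken up because miR-26a-1-3p, one of the miRNAs that the study itself picked from these libraries, was known to differ between the groups. The differences between the groups are therefore given for these 5 miRNAs as a description and without a test.

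The 786O line is a model of human clear cell renal cell carcinoma (ccRCC). All 8 libraries came from 786O cells transfected with a plasmid. The 4 NC samples received the negative control plasmid, and the 4 circSOD2-sh samples a plasmid with a short hairpin RNA against circSOD2, a circular RNA made from transcripts of the gene SOD2. The labels give a Lipofectamine reagent as the carrier and harvest 48 hours after transfection, whereas the methods of the study describe lentiviral shRNA and selection with puromycin. The labels do not say that the samples of a group came from separate cultures, so the spread between them may be technical. The level of circSOD2 cannot be read from these small RNA counts.

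A miRNA is cut from a hairpin that holds a strand on each side, the 5p arm and the 3p arm. The arm that is retained in Argonaute, the guide, pairs with target mRNAs through its seed, bases 2 to 8, and lowers their translation and stability, while the other arm, the passenger, is mostly degraded. In humans the miR-26 family is made from 3 hairpins in introns of the genes CTDSPL, CTDSP2 and CTDSP1, which encode small phosphatases that act on the C-terminal domain of RNA polymerase II. The family is widely expressed, is often reduced in tumors, and is known for targeting EZH2, the histone methyltransferase of the Polycomb repressive complex.

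The mature sequences show which counts can be assigned to which hairpin. They were taken from RefSeq on GRCh38.p14 and are printed 5′ to 3′ with the seed in capitals.
hsa-miR-26a-5p: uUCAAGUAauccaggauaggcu
hsa-miR-26b-5p: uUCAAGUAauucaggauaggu
hsa-miR-26a-1-3p: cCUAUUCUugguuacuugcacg
hsa-miR-26a-2-3p: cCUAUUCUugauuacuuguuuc
hsa-miR-26b-3p: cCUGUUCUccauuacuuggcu
MiR-26a-5p is the guide of 2 hairpins and is the same in both, so its counts cannot be divided between the loci. The 3p arm of each hairpin has its own sequence and marks the locus it came from. MiR-26a-5p and miR-26b-5p share the seed UCAAGUA and were identical at 19 of the 21 positions compared, with the substitutions C11U and C21U, counted from 1 at the 5′ end of miR-26a-5p. MiR-26a-1-3p and miR-26a-2-3p share the seed CUAUUCU and were identical at 17 of 22 positions, with G11A and, at the 3′ end, C19U, A20U, C21U and G22C. The seed of miR-26b-3p, CUGUUCU, is held by no other mature miRNA of that table, and miR-26b-3p differed from miR-26a-2-3p by A4G, U9C, G10C, U19G and U20C. How the authors' counting divided trimmed reads between such close sequences is not given in the sources used here, so each of these counts could hold reads of its relative. The other miRNAs with the seed UCAAGUA, miR-1297 and miR-4465, are not listed among the deposited counts.

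The 3 hairpins follow with both mature arms in capitals, because the arms are compared with each other further on.
MIR26A1: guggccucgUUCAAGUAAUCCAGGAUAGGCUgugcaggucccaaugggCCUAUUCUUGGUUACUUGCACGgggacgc
MIR26A2: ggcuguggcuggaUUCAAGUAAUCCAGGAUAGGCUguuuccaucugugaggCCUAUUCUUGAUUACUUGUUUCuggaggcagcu
MIR26B: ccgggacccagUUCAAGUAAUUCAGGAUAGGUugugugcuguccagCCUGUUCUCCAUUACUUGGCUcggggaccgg
MIR26A1 lies at chr3:37969404-37969480 on the plus strand, in an intron of CTDSPL. MIR26A2 lies at chr12:57824609-57824692 on the minus strand, in an intron of CTDSP2. MIR26B lies at chr2:218402646-218402722 on the plus strand, in intron 4 of CTDSP1. In the GENCODE release 29 annotation each hairpin is on the strand of its host gene and overlapped an exon in 0 of the basic transcripts of that host.

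The counts summed to between 6386872 and 9245044 per NC library and between 3743860 and 4208276 per circSOD2-sh library. Known miRNAs took between 36.2% and 41.9% of the NC counts and between 95.1% and 96.5% of the circSOD2-sh counts, the rest being predicted miRNAs. For this reason levels are given as CPM, which are counts scaled to a common library size, normalized with TMM, a scaling that sets most miRNAs level between libraries, and ratios within a library, which need no scaling, are given beside them. Zero counts in a library allow up to 0.460 to 0.674 normalized CPM (3 counts). NC replicate 4 and circSOD2-sh replicate 2 stood apart on markers of other cell types. The 2 stromal miRNAs, miR-143-3p and miR-145-5p, summed to 537 normalized CPM in NC replicate 4 and 218.7 in circSOD2-sh replicate 2, against 7.08 to 12.4 in the other libraries. The 5 neural miRNAs summed to 5226 in circSOD2-sh replicate 2 and to between 472 and 558 elsewhere. The 4 kidney tubule miRNAs summed to 1064 in NC replicate 4, to between 375 and 399 in the other NC libraries and to between 300.0 and 349 in circSOD2-sh. On the TMM scale this list was thus lower in circSOD2-sh with no overlap of the groups. The liver marker miR-122-5p was also lower without overlap on this scale, at 3.75 to 5.82 across NC and 1.36 to 2.49 across circSOD2-sh libraries. The lack of overlap in both cases depends on the scaling. The TMM factors, which multiply the library totals, were 0.697 to 0.733 in NC and 1.33 to 1.48 in circSOD2-sh. On the TMM scale the groups did not overlap for 60.3% of the miRNAs tested. The 3 muscle miRNAs ranged from 9.37 to 41.1 in NC, and the circSOD2-sh range of 10.7 to 29.04 lay within it. The 4 leukocyte miRNAs summed to 17.1 in NC replicate 4 and 14.6 in circSOD2-sh replicate 2, and to between 1.19 and 3.21 elsewhere. The 3 erythroid miRNAs summed to 169.5 in NC replicate 4, and to between 21.6 and 58.6 elsewhere. MiR-210-3p, the hypoxia-induced miRNA that is high in VHL-deficient kidney carcinoma, was detected in all 8 libraries, at 19.9 to 27.0 normalized CPM across the NC libraries and 13.9 to 19.8 across the circSOD2-sh libraries. Values of the members and of their ratios without both of these libraries are given with the results or in the closing section on processing. The part of these markers in the results was not tested.

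The 2 guide arms moved in opposite directions on this scale. MiR-26a-5p was higher in circSOD2-sh and miR-26b-5p was lower, so the abundant member of the pair gained on the less abundant one. The 3 passenger arms were all higher in circSOD2-sh, and miR-26a-1-3p was read in circSOD2-sh only. All 5 miRNAs passed the filter on low counts, miR-26a-1-3p through the circSOD2-sh libraries alone. All 5 were called by the edgeR fit at an adjusted p under 0.05, 4 higher and 1 lower, where 65.7% of the 895 miRNAs tested were called, 33.3% higher and 32.4% lower. All 5 had groups that did not overlap in normalized CPM, as had 60.3% of the miRNAs tested. Since the family was chosen on this contrast, nothing is read from these counts.

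Hsa-miR-26a-5p, the dominant guide, had counts of 82009, 86331, 83399 and 59937 in NC replicates 1 to 4 and of 108768, 103119, 101466 and 108648 in circSOD2-sh replicates 1 to 4. In normalized CPM these were 12567, 13278, 14208 and 13459 in NC and 18470, 18188, 20340 and 19307 in circSOD2-sh. Every circSOD2-sh library was above every NC library. The means were 13378 ± 674 in NC and 19076 ± 967 in circSOD2-sh (SD, n = 4), and the fitted log2 fold change was 0.51 (SE 0.065). It was 0.43 without the 2 libraries that stood apart. Without circSOD2-sh replicate 3 it was 0.33. The median over the miRNAs tested was -0.169 in the first of these fits and -0.18 in the second, against -0.002 with all libraries. The whole scale thus moved down in both, and these values alone do not show a smaller difference of miR-26a-5p. MiR-26a-5p stood at rank 8 or 9 among the known miRNAs of the NC libraries and at rank 6 or 7 in circSOD2-sh. As a share of the counts of known miRNAs it took 2.42% to 2.56% in NC and 2.54% to 2.89% in circSOD2-sh, and these ranges overlapped.

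Hsa-miR-26b-5p, the guide with the same seed, had counts of 16246, 17637, 16964 and 11701 in NC and of 10301, 7700, 9770 and 9823 in circSOD2-sh. In normalized CPM these were 2490, 2713, 2890 and 2627 in NC and 1749, 1358, 1958 and 1746 in circSOD2-sh. Every circSOD2-sh library was below every NC library, and circSOD2-sh replicate 2 was the lowest. The mean was 2680 ± 168 normalized CPM in NC and 1703 ± 250 in circSOD2-sh (SD, n = 4), a log2 fold change of -0.65 (SE 0.11), and of -0.67 without the 2 libraries that stood apart. The direction of miR-26b-5p depended on the scaling. In the CPM that the authors deposited, whose divisor is not given in the sources used here, it was 1650 to 1977 in NC and 1553 to 2237 in circSOD2-sh, with overlapping groups and the higher mean in circSOD2-sh. As a share of the counts of known miRNAs it took 0.485% to 0.506% in NC and 0.190% to 0.273% in circSOD2-sh, with no overlap.

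**Figure D1:**
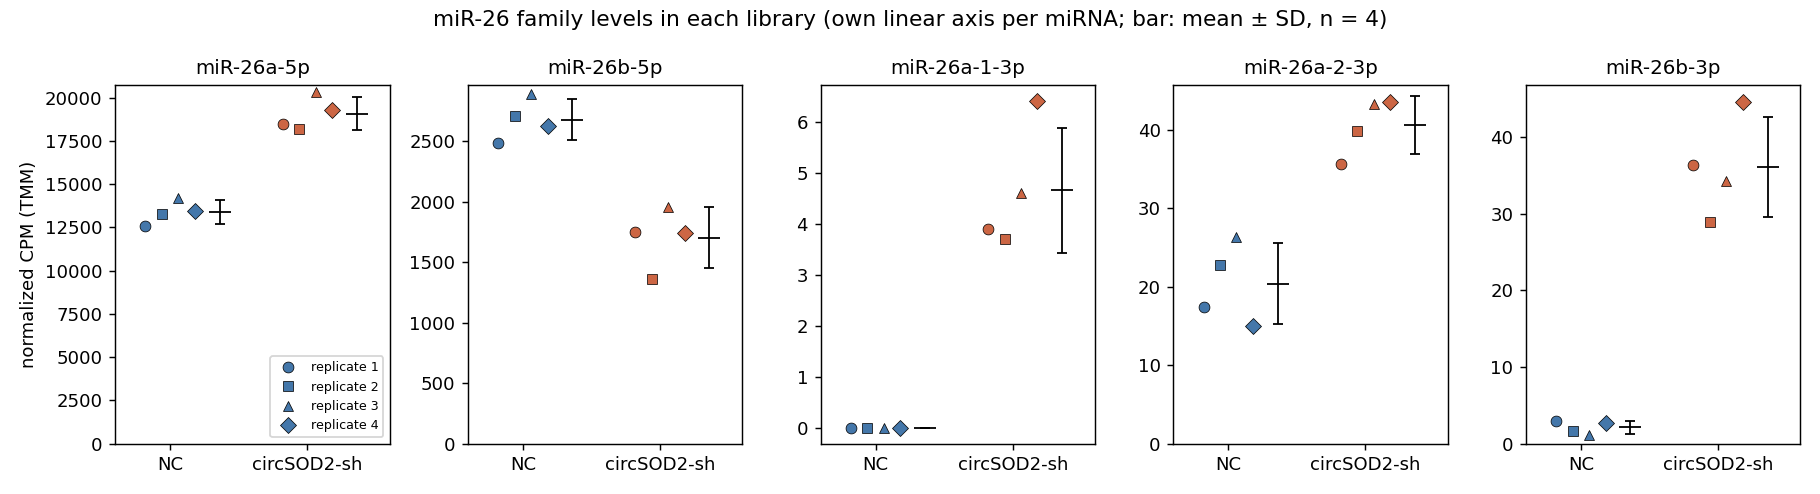
Normalized CPM (linear axis, one panel and one scale per miRNA) of the 5 miR-26 arms in the 4 NC and 4 circSOD2-sh libraries; points are libraries and bars are mean ± SD. The groups do not overlap in any panel, miR-26b-5p alone is lower in circSOD2-sh, and miR-26a-1-3p has 0 counts in all 4 NC libraries.

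The 2 guides were also set against each other within each library. There were 5.05, 4.89, 4.92 and 5.12 counts of miR-26a-5p per count of miR-26b-5p in NC and 10.6, 13.4, 10.4 and 11.1 in circSOD2-sh. The NC libraries agreed closely with each other, and circSOD2-sh replicate 2 had the highest ratio. On the log2 scale the ratio went from 2.32 ± 0.031 to 3.50 ± 0.17 (SD, n = 4), a difference of 1.18 (SE 0.086). The difference was 1.11 without NC replicate 4 and circSOD2-sh replicate 2. The 5 arms together took 2.91% to 3.06% of the counts of known miRNAs in NC and 2.74% to 3.17% in circSOD2-sh, so the share of the whole family overlapped between the groups while its division between miR-26a and miR-26b did not.

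Of the 3p arms, each of which comes from a single locus, hsa-miR-26a-1-3p marks MIR26A1 in CTDSPL. It had 0 counts in each of the 4 NC libraries and 23, 21, 23 and 36 counts in circSOD2-sh replicates 1 to 4, or 3.91, 3.70, 4.61 and 6.40 normalized CPM. The mean in circSOD2-sh was 4.65 ± 1.23 (SD, n = 4), at least 6.91-fold higher than the level that 3 counts in a NC library correspond to. These are small counts, and miR-26a-1-3p stood at rank 308 to 418 among the known miRNAs of the circSOD2-sh libraries. MiR-26a-1-3p was the only 1 of the 1482 known miRNAs with 0 counts in every NC library and at least 10 in every circSOD2-sh library. This pattern was set with the difference of miR-26a-1-3p between the groups known, so nothing is read from its being the only one.

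Hsa-miR-26a-2-3p marks MIR26A2 in CTDSP2. Its counts were 114, 148, 155 and 67 in NC and 210, 226, 216 and 245 in circSOD2-sh. In normalized CPM it was 17.5, 22.8, 26.4 and 15.04 in NC and 35.7, 39.9, 43.3 and 43.5 in circSOD2-sh. The groups did not overlap, and the NC libraries spread more widely than the circSOD2-sh libraries relative to their mean. The mean went from 20.4 ± 5.13 to 40.6 ± 3.69 normalized CPM (SD, n = 4), a log2 fold change of 0.99 (SE 0.19), and of 0.78 without NC replicate 4 and circSOD2-sh replicate 2.

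Hsa-miR-26b-3p marks MIR26B in CTDSP1 and comes from the same hairpin as the guide that was lower. Its counts were 19, 11, 7 and 12 in NC and 214, 164, 171 and 251 in circSOD2-sh. In normalized CPM it was 2.91, 1.69, 1.19 and 2.69 in NC and 36.3, 28.9, 34.3 and 44.6 in circSOD2-sh. The lowest circSOD2-sh library was far above the highest NC library. The mean went from 2.12 ± 0.817 to 36.04 ± 6.51 normalized CPM (SD, n = 4), which was 17.0-fold higher. The log2 fold change was 4.08 (SE 0.28), and 4.19 without the 2 libraries that stood apart.

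The 3p arms of the 2 miR-26a loci were then set against each other within each library. A share of 3p counts is not a measure of how much each locus was transcribed, since the arms of a hairpin can move apart, as those of MIR26B did. Of the counts of the 2 arms together, miR-26a-1-3p took 0 of 114, 0 of 148, 0 of 155 and 0 of 67 in the NC libraries. A count of 0 allows a share of up to 2.63%, 2.03%, 1.94% and 4.48% in these libraries, and 0 of the 484 counts summed over NC allows up to 0.620%. In circSOD2-sh the share was 9.87%, 8.50%, 9.62% and 12.8%, with lower bounds of 6.36%, 5.34%, 6.20% and 9.14% in exact 95% Clopper-Pearson intervals. On the same exact intervals the NC upper bounds were 3.18%, 2.46%, 2.35% and 5.36%, so that of NC replicate 4 reached above the lower bound of circSOD2-sh replicate 2. Summed over circSOD2-sh the share was 103 of 1000 counts, or 10.3% (8.49% to 12.4%). The intervals and limits cover counting error only.

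The balance between the arms of MIR26B differed more than its guide did. There were 1.17, 0.624, 0.413 and 1.03 counts of miR-26b-3p per 1000 counts of miR-26b-5p in NC and 20.8, 21.3, 17.5 and 25.6 in circSOD2-sh. The 3p arm took 0.0783% of the counts of both arms summed over NC (exact 95% interval 0.0579% to 0.103%) and 2.08% summed over circSOD2-sh (1.94% to 2.23%). The 5p arm remained the major arm in all 8 libraries. The log2 ratio of 5p to 3p counts went from 10.32 ± 0.67 to 5.56 ± 0.22 (SD, n = 4), a difference of -4.76 (SE 0.35). The difference was -4.91 without NC replicate 4 and circSOD2-sh replicate 2.

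For miR-26a the arms were closer to their NC balance. The 2 miR-26a 3p arms summed to 1.39, 1.71, 1.86 and 1.12 counts per 1000 counts of miR-26a-5p in NC and to 2.14, 2.40, 2.36 and 2.59 in circSOD2-sh. The groups did not overlap, and NC replicate 4 had the lowest value. The log2 ratio of 5p to 3p counts differed by -0.66 (SE 0.17), and by -0.52 without NC replicate 4 and circSOD2-sh replicate 2. Within the family the ratio of 5p to 3p was thus lower in circSOD2-sh for both miR-26a and miR-26b, and by more for miR-26b. The difference for miR-26a lay within the quartiles of -0.71 and 0.58 given below for hairpin names with both arms in the fit. It is therefore not read as a trait of the family.

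**Figure D2:**
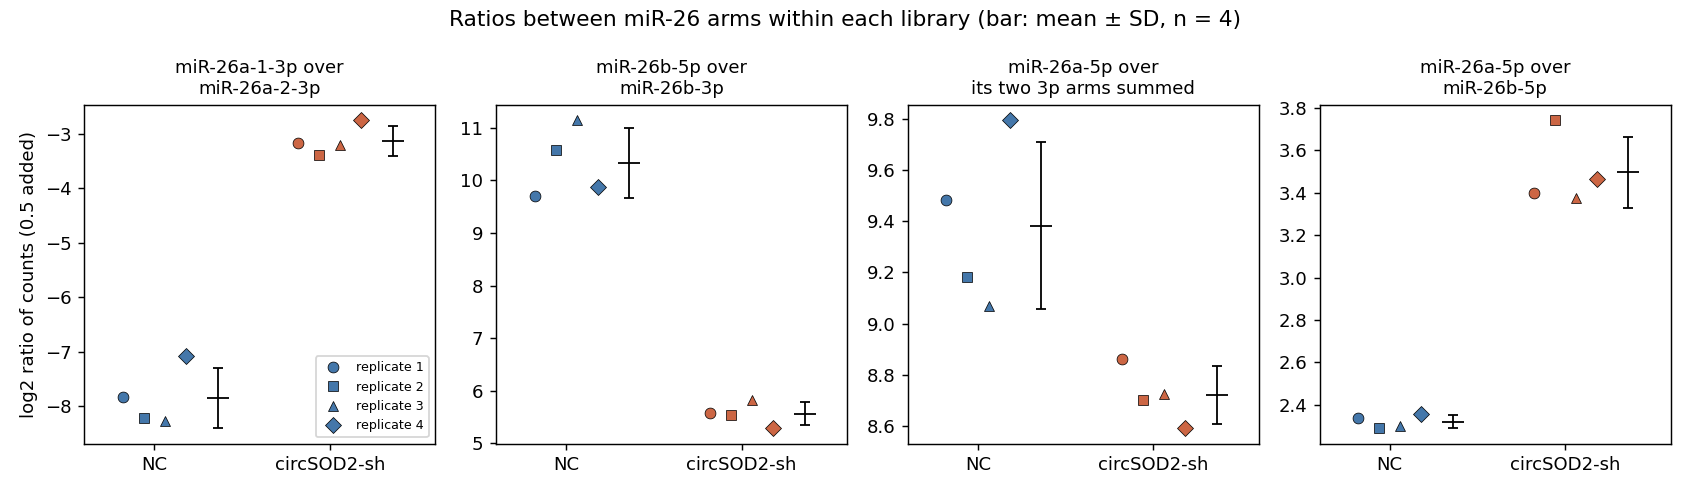
Log2 ratios of counts (0.5 added to each count) between miR-26 arms within each library, with one panel and one axis per ratio; points are libraries and bars are mean ± SD (n = 4). The groups do not overlap in any panel, the NC values of the first panel rest on 0 counts of miR-26a-1-3p, and the ratio of miR-26b-5p to miR-26b-3p is about 10.32 in NC and 5.56 in circSOD2-sh.

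Other hairpins gave a frame for the arm ratio of miR-26b. Both arms were in the fit for 117 hairpin names. The median difference of their log2 ratio of 5p to 3p counts between circSOD2-sh and NC was 0.044, with quartiles of -0.71 and 0.58. The 3p arm gained by over 2 on the log2 scale in 17 of them, miR-26b included, and the 5p arm in 10. A shift toward the 3p arm at least as large as that of miR-26b was found in 5 of the other 116 names, which were miR-532, miR-106b, miR-23a, miR-188 and miR-132, named after their values were seen. In NC, 3 other names had a log2 ratio at or above the 10.32 of miR-26b, and in circSOD2-sh 22 other names were at or above its 5.56. MiR-26b thus went from among the names most weighted toward the 5p arm in NC to one less so in circSOD2-sh. Names weighted toward the 3p arm do not enter these counts, however uneven their arms.

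**Figure D3:**
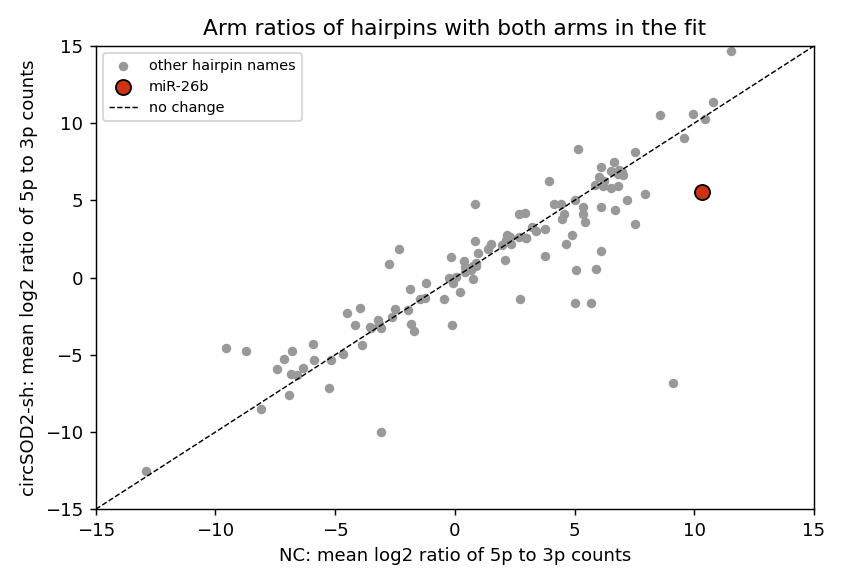
Mean log2 ratio of 5p to 3p counts in NC (x axis) and circSOD2-sh (y axis) for the 117 hairpin names with both arms in the fit; each point is a hairpin name and the dashed line marks equal ratios. MiR-26b, in red, is at 10.32 in NC and 5.56 in circSOD2-sh, below the line.

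To see whether other copies of a miRNA shifted against each other, names with 2 numbered copies in the fit were compared in the same way. Besides miR-26a these were let-7f, miR-125b, miR-16, miR-29b and miR-30c. The difference of the log2 ratio of the first to the second copy between circSOD2-sh and NC was 4.72 for miR-26a, a value that depends on the 0.5 counts added because its first copy was at 0 in NC. It was 2.17 for let-7f, where let-7f-1-3p went from 524 to 1786 summed counts while let-7f-2-3p went from 2476 to 1921. For the other 4 it was -0.76 (miR-125b), -0.20 (miR-16), 0.045 (miR-29b) and -0.82 (miR-30c). MiR-26a had the largest difference of the 6 names, at 2.82 with 2 counts added and 7.02 with 0.1, and no test of that order was made. The family was chosen with the difference of miR-26a-1-3p known, so nothing is read from its place in this order.

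Over all locus-numbered arms of other miRNAs, 36 were listed and 20 were tested. Of these, 4 rose, 10 fell and 6 did not pass the test. Over all 895 miRNAs tested, 33.3% were called higher and 32.4% lower. The median log2 fold change was -0.26 in this list beside -0.002 over all miRNAs tested, and no test of these differences was made. The pattern of miR-26a-1-3p, at 0 in every NC library and at 10 or more in every circSOD2-sh library, was found in 0 of the 36. Since the pattern was set on miR-26a-1-3p itself, nothing is read from that. The largest rises were those of miR-181b-2-3p (1 to 3 counts per NC library and 17 to 23 per circSOD2-sh library, at least 5.53-fold higher) and miR-138-1-3p (1 to 3 and 12 to 23 counts, at least 4.95-fold higher). MiR-19b-1-5p, the passenger of a member of the miR-17-92 cluster, had the largest fall, from 22.6 ± 2.79 to 3.04 ± 1.08 normalized CPM (SD, n = 4; log2 fold change -2.89, SE 0.26; edgeR quasi-likelihood test, Benjamini-Hochberg adjusted p = 5.28e-06). MiR-181a-2-3p fell from 304 ± 7.62 to 112 ± 4.95 (log2 fold change -1.44, SE 0.081; edgeR adjusted p = 1.22e-07). The balance of this list depended on the scaling, with 14 arms called higher and 2 lower with library totals and 13 higher and 3 lower with limma on the deposited CPM.

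The guides of miR-26 were also set beside 20 arms of other miRNAs that lie in introns of protein-coding genes. Not all were abundant in these cells, and miR-7-5p had a mean of 3.07 ± 0.548 normalized CPM in NC (SD, n = 4). Of these, 7 rose, 3 fell and 10 did not pass the test, with a median log2 fold change of 0.21. Over all 895 miRNAs tested, 33.3% were called higher and 32.4% lower, with a median of -0.002. Of the known miRNAs tested, 55.5% were called in either direction. Calls were thus no more frequent in this list than among the miRNAs tested, and no test of the difference was made. MiR-342-3p, from an intron of EVL and also picked by the study from these libraries, rose from 10.3 ± 2.14 to 481 ± 123.95 normalized CPM (log2 fold change 5.54, SE 0.24; edgeR adjusted p = 1.73e-08). MiR-15b-5p, from an intron of SMC4, rose from 690 ± 57.2 to 10225 ± 3895 (log2 fold change 3.89, SE 0.31; edgeR adjusted p = 1.68e-06). The largest falls were those of miR-28-3p, from an intron of LPP (log2 fold change -0.61, SE 0.085; edgeR adjusted p = 0.00014), and miR-140-3p, from an intron of WWP2 (log2 fold change -0.42, SE 0.075; edgeR adjusted p = 0.000761). The log2 fold changes of 0.51 for miR-26a-5p and -0.65 for miR-26b-5p can be set beside this list: the first lay within the range of its called changes, and the second just below its largest called fall. The counts of this list became 4 higher and 5 lower without circSOD2-sh replicate 3. They became 6 lower without circSOD2-sh replicate 2 and 5 lower without circSOD2-sh replicate 4. In these fits the median log2 fold change over the miRNAs tested was -0.18, -0.195 and -0.129 in that order, against -0.002 with all libraries. How much of the change in calls came with that shift was not tested. With library totals as the scale all 20 of these arms were called higher. The 7 rises thus kept their direction, while the direction of the 3 falls, like that of miR-26b-5p, depended on the scaling.

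The known miRNAs with the profiles most like those of 3 family members over the 8 libraries were found by the root mean square difference of log2 normalized CPM plus 1, each profile taken relative to its NC mean, among 462 known miRNAs. For miR-26a-5p these were miR-767-5p (0.0752), miR-500a-3p (0.0848) and miR-92b-3p (0.0882), against a median of 0.654. For miR-26b-5p they were miR-550a-3-5p (0.0887), let-7a-5p (0.0947) and miR-550a-5p (0.0948), against a median of 0.536. MiR-550a-3-5p is contained in the sequence of miR-550a-5p, so these count as a single neighbor. Let-7a-5p, a guide of the let-7 family with several genomic copies, went from 9273 ± 866 to 6038 ± 392 normalized CPM. For miR-26a-1-3p the nearest were miR-941 (0.188), miR-330-3p (0.220) and miR-766-3p (0.248), against a median of 1.88, and their NC means of 81.6 ± 5.53, 4.53 ± 0.366 and 3.39 ± 0.647 normalized CPM were above 0. The added 1 compresses the profile of miR-26a-1-3p at its low level, so these distances describe this scale only.

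The choice of scaling shifted the log2 fold changes of the members. When counts were scaled by library totals instead, all miRNAs tested had a median log2 fold change of 0.96, and the fit called 613 higher and 158 lower in place of 298 and 290. Relative to that median, miR-26a-5p was at 0.52, miR-26b-5p at -0.65, miR-26a-2-3p at 0.99 and miR-26b-3p at 4.09, against 0.51, -0.65, 0.99 and 4.08 relative to the median under TMM. The fitted value of miR-26a-1-3p, whose NC counts are 0, did not keep its distance and was at 7.34 in place of 7.74. With limma on the deposited CPM plus 1 it was at 1.96 and miR-26b-3p at 3.47 above the median. The order of the 5 members was the same under TMM and library totals. With limma on the deposited CPM plus 1, miR-26b-3p stood above miR-26a-1-3p instead of below it.

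**Figure D4:**
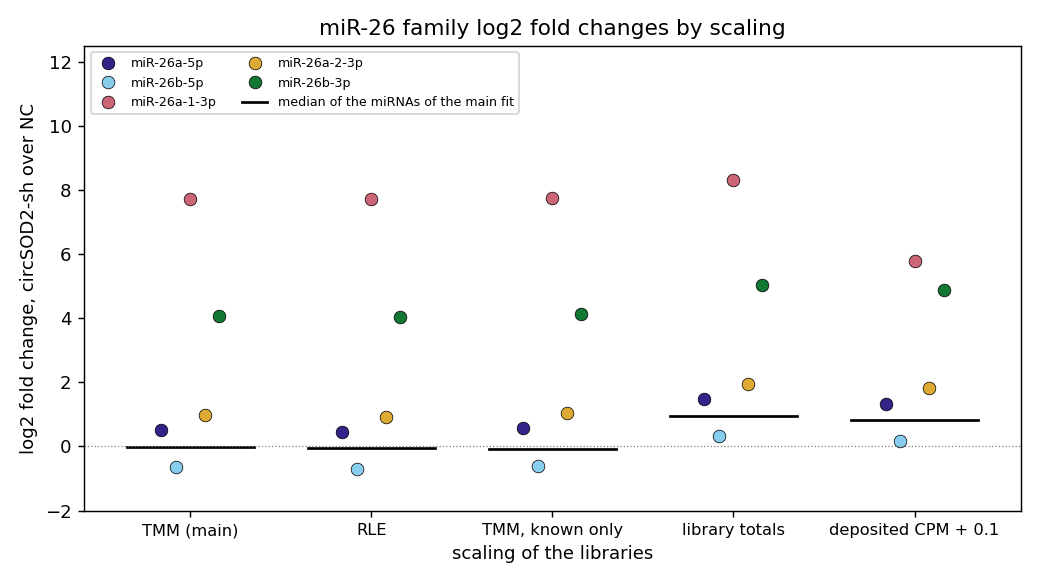
Log2 fold change of circSOD2-sh over NC (y axis) for the 5 miR-26 arms under 5 scalings of the libraries (x axis). Black lines mark the median over the miRNAs of the main fit, except that the line for known miRNAs only is a median over known miRNAs. With library totals all 5 members shift upward with the median, with deposited CPM all but miR-26a-1-3p do, and miR-26b-5p changes sign from -0.65 to 0.31 and 0.16; the points of miR-26a-1-3p are fitted values that depend on the constant added to its 0 counts in NC.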

How the data were processed

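Small RNA sequencing of 4 NC and 4 circSOD2-sh samples of 786O cells was analysed. The authors deposited raw counts per mature miRNA, CPM whose divisor is not named, and a table of their own comparison (fold changes and p-values) that was not used. The submitters' processing notes name FastQC 0.11.2, Trimmomatic 0.36, Bowtie 1.1.1 and GRCh38 without their roles, and the miRNA annotation is not given in the sources used here. Columns were matched to samples by name.

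Counts were fitted with edgeR 4.0.16 in R 4.3.3 (filterByExpr with a minimum count of 10, TMM, quasi-likelihood test, prior count 0.125, Benjamini-Hochberg adjustment over 895 miRNAs), with DESeq2 1.42.0, limma 3.58.1, other scalings, other filters and left-out libraries as alternatives. The script was tested on simulated data. Ratios used counts plus 0.5. Exact intervals were made with scipy 1.17.1.

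The members, lists and tests were chosen with earlier results of these data known. Named miRNAs were the 5 members, the 3 nearest profiles of miR-26a-5p, miR-26b-5p and miR-26a-1-3p, and the 2 largest rises and falls among the calls of each list.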

Additional observations from a re-analysis of the deposited data

How the results depend on the processing

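The scaling decided the sign of miR-26b-5p. Its log2 fold change was -0.65 with TMM, 0.31 with library totals, and 0.16 with limma on the deposited CPM plus 1 and 0.16 with the deposited CPM plus 0.1. Under the same 3 settings miR-26a-5p was at 1.48, 1.34 and 1.34, miR-26a-1-3p at 8.31, 2.68 and 5.78, and miR-26a-2-3p at 1.95, 1.77 and 1.84. MiR-26b-3p was at 5.05 with library totals and 4.87 with deposited CPM plus 0.1. The fitted value of miR-26a-1-3p, 7.73, became 7.14 with DESeq2 and 3.83 with a prior count of 2, and the difference of its ratio to miR-26a-2-3p, 4.72, became 7.02 with 0.1 counts added and 2.82 with 2, because its NC counts are 0. It was not in the fit with a mean of at least 50 counts. Calls over all miRNAs numbered 588, 246 in a fit of known miRNAs only and 361 with a mean of at least 50 counts, both of which test fewer miRNAs.

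Of the locus-numbered arms, 4 were higher and 10 lower. With library totals these were 14 and 2, with limma on CPM plus 1 they were 13 and 3, and on CPM plus 0.1 also 13 and 3. Without the low-count filter 7 were higher, and with a mean of at least 50 counts 2 were. Of the intronic guide arms, 7 were higher and 3 lower, which became 20 and 0 with library totals, 18 and 0 with CPM plus 1, and 18 and 0 with CPM plus 0.1. Leaving out NC replicate 4 and circSOD2-sh replicate 2 together gave 5 lower and a value of 0.43 for miR-26a-5p, with a median of -0.169 over the miRNAs tested. The fitted value of miR-26a-1-3p was then 7.83, and the difference of its log2 ratio to miR-26a-2-3p was 5.07.

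With each library left out in turn the calls numbered 537 to 661. The median log2 fold change over the miRNAs tested then ranged from -0.195 (without circSOD2-sh replicate 2) to 0.021 (without NC replicate 4). It was -0.18 without circSOD2-sh replicate 3 and -0.002 with all libraries, and the values that follow are not corrected for this shift. MiR-26a-5p then ranged from 0.33 (without circSOD2-sh replicate 3) to 0.49, miR-26b-5p from -0.88 (without circSOD2-sh replicate 3) to -0.67, and miR-26a-1-3p from 7.47 to 7.77. Intronic arms called higher ranged from 4 (without circSOD2-sh replicate 3) to 7, and called lower from 3 to 6 (6 without circSOD2-sh replicate 2, 5 without replicate 3 and 5 without replicate 4). Deviations of same-numbered samples from their group means were weakly correlated (0.26, -0.0994, 0.0965 and -0.174). These values cannot exclude that the numbers pair the samples, and the labels do not say that they do. With the replicate block 574 miRNAs were called, and the members were at 0.51, -0.66, 7.69, 1.01 and 4.10 in the order miR-26a-5p, miR-26b-5p, miR-26a-1-3p, miR-26a-2-3p and miR-26b-3p.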
